A study of Arabidopsis thaliana with 27 samples.

Results

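ARR15 (AT1G74890) encodes a type-A response regulator of Arabidopsis thaliana, a small receiver protein of the cytokinin pathway. It was followed as 1 gene, through the probe set (262212_at) that the platform annotation assigns to ARR15 alone, out of 13348 genes that have a probe set of their own and 22743 probe sets tested. Suspension-cultured cells of ecotype Col-0, from a habituated line and 7 days old, were moved into fresh medium with sucrose and vitamins that held the auxin NAA, the cytokinin BAP and epibrassinolide, a brassinosteroid, and they formed tracheary elements, the dead, thick-walled water-conducting cells of xylem. RNA was sampled at steps of 12 h, up to 96 h, in time-courses A, B and C, which were grown separately, so that each of the 9 times had n = 3 and each of the 27 samples had its own single-colour array. The labels describe pluripotent, dividing cells at 0 h, cells that stop dividing and begin to expand at 12 h and 24 h, differentiation beginning at 24 h and 36 h, cells not yet laying down secondary wall at 48 h, wall deposition at 60 h, 72 h and 84 h, and, at 96 h, completed walls and cells about to die. Arrays of cultures without the hormones were not used here, so a difference from 0 h covers the fresh medium, its 3 hormones and time together.

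Cytokinin is sensed by membrane histidine kinases, which pass a phosphoryl group through shuttle proteins to response regulators in the nucleus. The type-B regulators bind DNA and switch on target genes, among them the type-A regulators. Type-A regulators such as ARR15 lack a DNA-binding output domain and dampen the same pathway, so that their transcripts are widely used as a readout of cytokinin signalling. In vascular tissue, cytokinin keeps procambial cells dividing, and in roots low cytokinin signalling accompanies the choice of protoxylem identity. Auxin also acts on ARR15: it was reported to raise ARR15 in the embryonic root, and the auxin response factor MONOPTEROS to repress it in the shoot apex.

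The probe set signals are RMA values on a log2 scale that stops at a floor of 0, with array medians between 0.85 and 1.00. No source used here names the base of the logarithm, and base 2 was assumed from the size of the values. ARR15 was above the floor on all 27 arrays. No detection call comes with these values, so a fall below the 0 h level could hardly be seen, and a rise that starts near the floor is understated. RNA of a whole culture was measured, in which fewer cells of a type and less RNA per cell cannot be told apart. The GAPDH control's 3′ minus 5′ signal difference, a measure of RNA degradation, lay at 2.99 to 4.38 log2 units on 5 arrays and at 0.35 to 1.89 on the remaining 22. These 5 arrays belonged to B and were its 0 h array and its 4 arrays from 60 h onward. Of 14 marker genes of tracheary elements 3 could be read, among them IRX15, which acts in xylan synthesis and averaged 0.62 ± 0.10 log2 units at 0 h, 1.88 ± 0.36 at 48 h and 3.34 ± 0.48 at 72 h (SD, n = 3). The markers did not follow one timing: PASPA3, a protease gene of xylem, averaged 1.17 at 0 h, 2.89 at 24 h, 1.83 at 36 h and 3.07 at 60 h.

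ARR15 rose early and was back near its starting level at 72 h, during wall deposition. At 0 h its signal was 0.70, 0.82 and 0.76 log2 units in time-courses A, B and C. At 12 h it was 2.37, 3.05 and 3.48, and at 24 h 2.55, 2.48 and 2.65. All 6 of these arrays lay far above the 0 h arrays, and the letters differed most at 12 h (SD 0.56) and little at 24 h (SD 0.09). At 36 h the signal was 2.20, 1.48 and 1.31, and at 48 h 2.05, 1.66 and 1.28. Every array of 36 h and 48 h was still above every 0 h array and below every 24 h array, with A the highest and C the lowest at both times. At 60 h, when wall deposition starts by the labels, it was 1.10, 1.25 and 1.44. At 72 h it was 0.98, 0.41 and 0.85, at 84 h 0.82, 1.09 and 1.02, and at 96 h 0.97, 0.68 and 0.68. The 72 h and 96 h arrays overlapped those of 0 h, while the 60 h and 84 h arrays lay just above them.

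**Figure D1:**
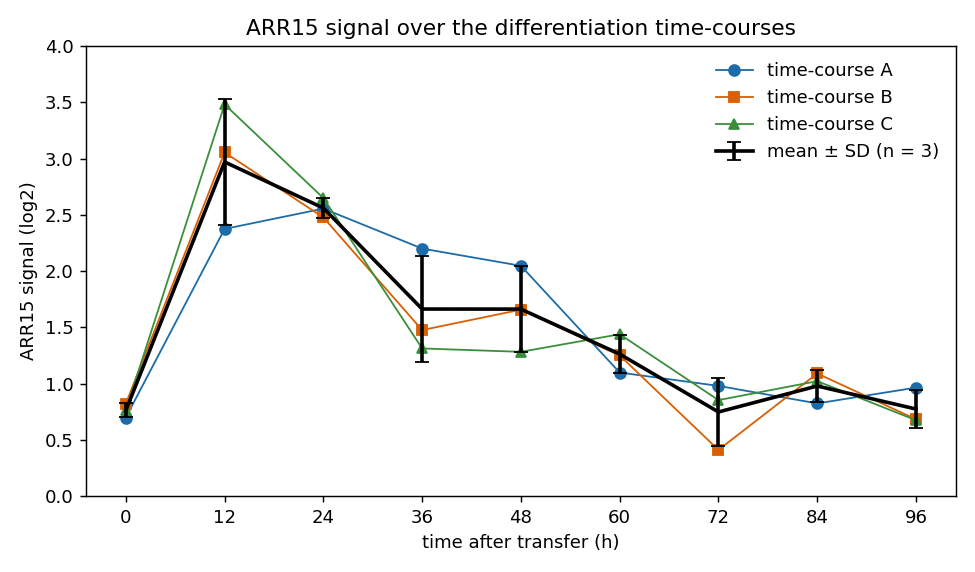
ARR15 signal (log2, vertical axis) against time after transfer (h, horizontal axis), with a thin coloured line for each of time-courses A, B and C and a thick black line for the mean with SD (n = 3). The mean rises to 2.97 at 12 h and comes back to 0.75 at 72 h, and time-course A is the lowest of the 3 at 12 h and the highest at 36 h and 48 h.

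Each later time was compared with 0 h, the comparison the series' design names, in 1 limma fit to all 27 arrays. A difference is called where its Benjamini-Hochberg adjusted p over all probe sets is under 0.05. ARR15 was 2.21 ± 0.24 log2 units higher at 12 h than at 0 h (SE, n = 3), a 4.62-fold difference with a 95% interval of 3.25 to 6.56, and this was called (adjusted p = 9.48e-07), as were 17.1% of all probe sets in that comparison (8.48% upward). At 24 h it was 1.80 ± 0.24 higher, or 3.48-fold (2.45 to 4.94), with adjusted p = 2.53e-05, where 12.2% of probe sets were called (5.44% upward). The rise was present in 3 of 3 time-courses at both times, from 1.68 to 2.72 at 12 h and from 1.65 to 1.88 at 24 h. Ranked by the size of the rise, ARR15 stood at place 364 of 22743 probe sets at 12 h and at place 208 at 24 h. Its calls at 12 h and 24 h were kept in each of 18 alternatives tried for each, with adjusted p of at most 0.00859 and 0.00882. The GAPDH control difference was low, in its time means, at the 4 times when ARR15 was called higher. It averaged 1.92 log2 units at 0 h, 0.72, 0.91, 0.76 and 0.97 at 12 h, 24 h, 36 h and 48 h, and 1.86 to 2.17 at the 4 times from 60 h to 96 h. In B it was 0.73 at 12 h, against 3.74 at 0 h, in C 0.37 at 12 h, against 1.50 at 0 h, and in A 1.05 at 12 h, against 0.53 at 0 h. With this difference as a covariate ARR15 was 2.16 higher at 12 h than at 0 h, 1.76 at 24 h, 0.85 at 36 h and 0.86 at 48 h, each still called (adjusted p = 1.97e-06, 3.87e-05, 0.024 and 0.0228). Without all 9 arrays of B it was 2.20 higher at 12 h than at 0 h. The covariate rests on 1 control gene, whose difference changed with time as well, so it may adjust only in part. What RNA degradation adds to these ARR15 differences was not tested.

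The later rises were smaller and less secure. ARR15 was 0.90 ± 0.24 log2 units above 0 h at 36 h and 0.90 ± 0.24 at 48 h (SE, n = 3), which is 1.87-fold at each, and both were called (adjusted p = 0.0151 and 0.0169 by limma), as were 13.5% and 11.7% of all probe sets (5.97% and 4.98% upward). All 3 time-courses were above their own 0 h level at both times, A by 1.50, B by 0.65 and C by 0.55 at 36 h, and A by 1.35, B by 0.83 and C by 0.52 at 48 h. The largest value came from A each time. Without the 36 h array of A the 36 h difference was 0.63 and was not called (adjusted p = 0.107), and without the 48 h array of A the 48 h difference was 0.71 and was not called either (adjusted p = 0.109). Leaving out all of time-course B also ended both calls (1.02 at 36 h, adjusted p = 0.133, and 0.93 at 48 h, adjusted p = 0.19), as did leaving out all of C (1.08, adjusted p = 0.0689, and 1.09, adjusted p = 0.0775), and leaving out all of A ended the 36 h call (0.60, adjusted p = 0.0502). At 60 h the difference was 0.50 ± 0.24, positive in 3 of 3 time-courses, with a 95% interval from -0.00 to 1.01, and it was not called (adjusted p = 0.202), while 13.2% of all probe sets were. At 72 h, 84 h and 96 h the differences from 0 h were -0.01, 0.22 and 0.01 (SE 0.24 each; adjusted p = 0.994, 0.776 and 0.993), in comparisons that called 6.57%, 6.31% and 4.51% of all probe sets. Their 95% intervals ran from -0.52 to 0.49, from -0.29 to 0.72 and from -0.49 to 0.52. These signals lie near the array medians on a scale that understates low changes, so the intervals set no bound on the fold change of the transcript. An exact permutation test of 3 arrays against 3, two-sided, gave p = 0.1 at 12 h, the smallest that this design allows. It gave the same p at 24 h, 36 h, 48 h, 60 h and 84 h, so it does not tell these times apart.

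**Figure D2:**
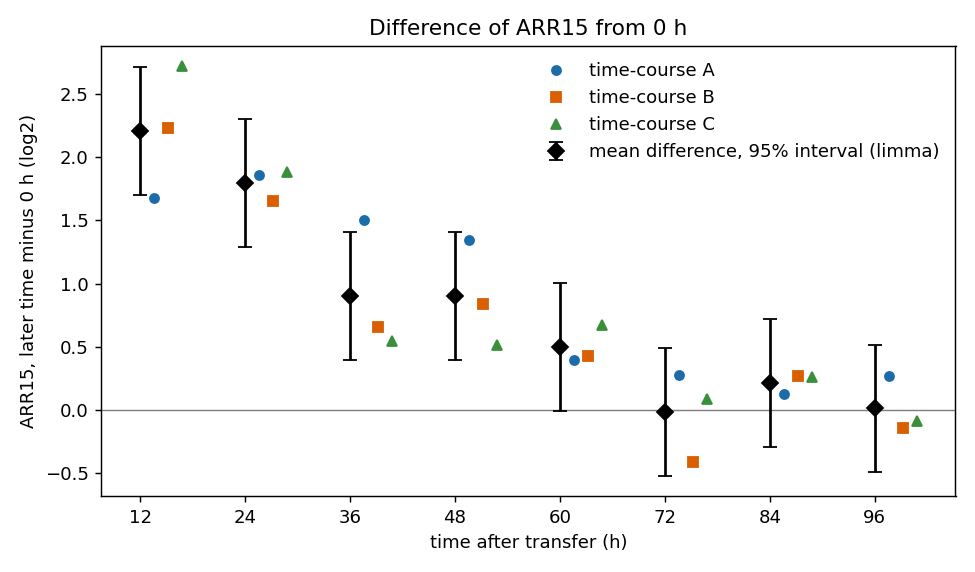
Difference of ARR15 from 0 h (log2, vertical axis) at each later time (h, horizontal axis). Black diamonds are mean differences with 95% intervals from the limma fit (n = 3), and coloured points beside them are the differences within time-courses A, B and C. The intervals lie above 0 from 12 h to 48 h and include 0 from 60 h on.

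The call pattern of ARR15, higher than 0 h from 12 h to 48 h and not called from 60 h to 96 h, was shared by 122 other probe sets. With ARR15 these made 0.541% of all probe sets tested, and 70 of the 123 are annotated to 1 gene. Over all 9 times the moderated F test called ARR15 (F = 22.5, adjusted p = 9.02e-07), as it did 23.1% of probe sets. Differences between times made 90.3% of the sum of squares of ARR15 over the 27 arrays.

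In the values measured, the way down differed between the time-courses, and its mean hides steps at different times. With 1 array per letter and time, this difference was not tested. Taken step by step, ARR15 was 0.41 ± 0.24 log2 units lower at 24 h than at 12 h (SE; adjusted p = 0.361, with 12.6% of probe sets called) and 0.90 ± 0.24 lower at 36 h than at 24 h. The second step was present in 3 of 3 time-courses (-0.36, -1.00 and -1.34 in A, B and C) and the ranges of the 2 times did not overlap. It had an unadjusted p of 0.00138 and an adjusted p of 0.336 in a comparison in which 0.132% of all probe sets were called. It was called without the 36 h array of A (-1.17, adjusted p = 0.0419), where 72 of 22743 probe sets were called, against 30 with all arrays. Between 36 h and 48 h the means differed by -0.00 ± 0.24, with 0.132% of probe sets called. The steps at 60 h against 48 h (-0.40 ± 0.24) and 72 h against 60 h (-0.51 ± 0.24) were not called (adjusted p = 0.539 and 0.455), with 0.0132% and 0.664% of all probe sets called, the second being downward in 3 of 3 time-courses. Later steps were small and of both signs among the letters, 0.23 ± 0.24 at 84 h relative to 72 h and -0.20 ± 0.24 at 96 h relative to 84 h.

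Set against the pre-wall phase as a whole, the fall was called. The 9 arrays of 60 h to 84 h averaged 1.00 log2 units and the 9 arrays of 24 h to 48 h averaged 1.96. ARR15 fell by 0.96 log2 units between these phases (SE 0.14), to 0.51 of the pre-wall level on the linear scale with a 95% interval of 0.42 to 0.63 (adjusted p = 1.38e-04). It fell in 3 of 3 time-courses, and 6.3% of all probe sets were called in this comparison (3.61% downward). The pre-wall mean includes 24 h (2.56), while 36 h and 48 h averaged 1.66 each. None of the times from 60 h to 84 h was called against 36 h or 48 h alone. Without time-course B, which holds all 5 arrays with a high GAPDH difference, the fall was by 0.97 log2 units (adjusted p = 0.0412).

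Ordered by mean, the levels of ARR15 ran from 12 h (2.97) and 24 h (2.56) through 36 h (1.66), 48 h (1.66), 60 h (1.26) and 84 h (0.98) to 96 h (0.77), 0 h (0.76) and 72 h (0.75). No 2 neighbours in this order passed the adjusted threshold (adjusted p from 0.336 to 1). The ranges of 24 h and 36 h did not overlap, and the 95% interval of their difference, from -1.40 to -0.39, left out 0. The ranges of 60 h and 84 h did not overlap either. Of the 36 pairs of times 14 were called, with 2.62% to 17.4% of all probe sets called in those pairs. Of the 14 pairs, 4 set 12 h, 24 h, 36 h and 48 h against 0 h, 6 set the times from 36 h to 96 h against 12 h, and 4 set those from 60 h to 96 h against 24 h. The remaining 22 pairs, among them every pair of times from 36 h on, did not pass. The nearest to passing were 96 h against 36 h (-0.89 ± 0.24, adjusted p = 0.0505, 2.94% of probe sets called) and 72 h against 36 h (-0.91 ± 0.24, adjusted p = 0.0635, 1.59% called).

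**Figure D3:**
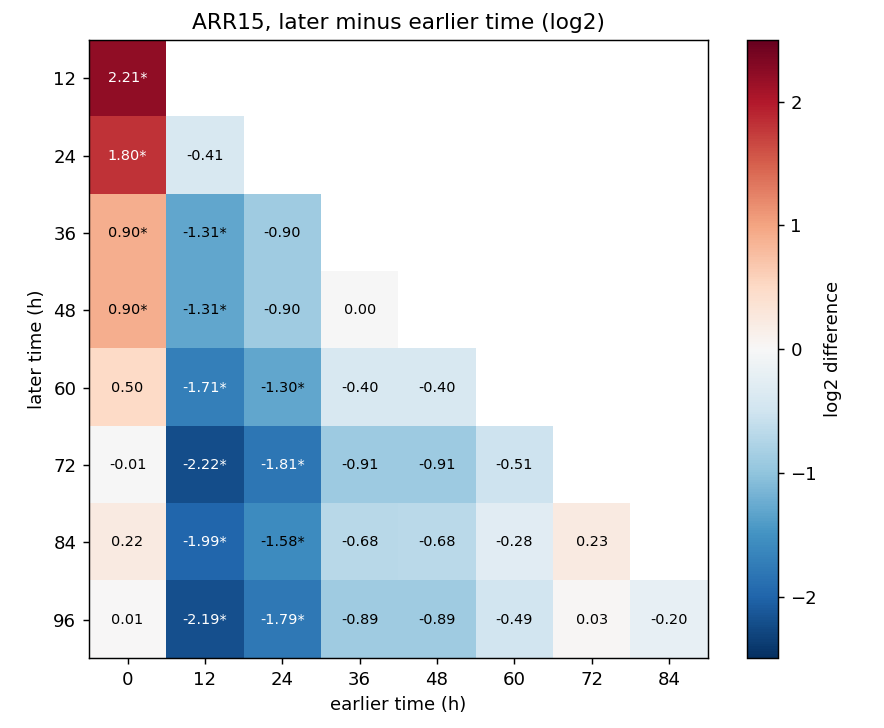
Difference of ARR15 between every pair of times (log2), with the later time down the side (h), the earlier time along the bottom (h) and red for higher and blue for lower at the later time. Asterisks mark the 14 pairs called by limma. They lie in the columns of 0 h, 12 h and 24 h.

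ARR15 rose early in all 3 time-courses, with a different shape in A. ARR15 peaked at 12 h in B (3.05) and C (3.48), whereas in A its highest value was at 24 h (2.55) and lay 0.18 log2 units above the 12 h value. The rise from 0 h to the peak was 1.86 log2 units in A, 2.23 in B and 2.72 in C. At 36 h the part of that rise still present was 80.9% in A, 29.3% in B and 20.2% in C, and at 48 h it was 72.6%, 37.4% and 19.1%. At 60 h the parts were close, at 21.5%, 19.2% and 24.8%. Profiles of B and C over the 9 times had a Pearson r of 0.96, those of A and B 0.86 and those of A and C 0.78, as a description over points that share 1 gene and 1 set of times. Each letter has 1 array per time, so a difference between letters at 1 time has no replicate and was not tested. Without the 9 arrays of A, a setting chosen after seeing the data, the steps of 24 h against 12 h (-0.70, adjusted p = 0.0242) and of 36 h against 24 h (-1.17, adjusted p = 0.0076) were both called. Calls over all 22743 probe sets rose too, from 2866 to 3116 for the first step and from 30 to 311 for the second.

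Other genes of the cytokinin pathway were sought in lists of receptors and phosphotransfer proteins, response regulators, enzymes of cytokinin synthesis, breakdown and conjugation, carriers, cytokinin response factors and regulators of type-B turnover, other cytokinin-induced genes and known regulators of the ARR15 promoter. Of 87 genes besides ARR15, 7 had a probe set of their own in the annotation at hand: ARR16, ARR18, ARR19, ARR22, UGT76C1, UGT76C2 and UGT73C1. At 12 h against 0 h 1 of the 7 rose and 1 fell, beside 8.48% and 8.67% of all probe sets, and the median of the 7 was 0.09 log2 units against 0.00 over all probe sets. At 24 h 1 rose and 1 fell as well (5.44% and 6.77% of all probe sets), at 36 h 0 rose and 1 fell (5.97% and 7.55%), and at 60 h 0 rose and 1 fell (5.36% and 7.86%). Array weights, or leaving out time-course A, raised the 2 calls at 12 h to 4, and leaving out B or C lowered them to 0. Calls over all probe sets at 12 h moved the same way, from 3900 of 22743 to 5069 with array weights and 4121 without A. They were 2662 without B and 1563 without C. The other 4 response regulators lay near the floor throughout. ARR16, the other type-A regulator measured, stood between 0 and 0.39 log2 units and was exactly 0 on 7 arrays. The type-B regulators ARR18 and ARR19 stood at 0.08 to 0.82 and at 0 to 0.52, and the type-C regulator ARR22 at 0 to 0.55. limma called none of these 4 at any later time against 0 h, and at such levels a change in the transcript may not be visible on this scale. UGT73C1, which can glucosylate cytokinins, reached at most 0.74.

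The gene that rose was UGT76C2, which encodes an enzyme that inactivates cytokinins by N-glucosylation. Its signal at 0 h was 3.83, 2.55 and 2.87 log2 units in A, B and C. At 12 h it was 4.06, 4.59 and 4.59, and at 24 h 4.08, 4.51 and 4.52. All 6 of these arrays were above all 0 h arrays, but in A the distance was small. UGT76C2 was 1.33 ± 0.41 log2 units higher at 12 h than at 0 h (SE, n = 3; adjusted p = 0.0275) and 1.29 ± 0.41 higher at 24 h (adjusted p = 0.0436), upward in 3 of 3 time-courses. These calls were fragile: the 12 h call was lost in 7 of 18 alternatives, including without the 0 h array of B (1.06, adjusted p = 0.142), without that of C (1.22, adjusted p = 0.0947), and without the 12 h array of B or C (1.24 each, adjusted p = 0.0934 and 0.0941). The 24 h call was lost in 9 of 18, with 1.02 and adjusted p = 0.194 without the 0 h array of B, 1.18 and 0.139 without that of C, and 1.43, 1.22 and 1.21 (adjusted p = 0.0593, 0.115 and 0.127) without the 24 h array of A, B or C. Later its mean was 3.98 at 48 h, 3.06 at 60 h and 2.60 at 72 h, against 3.09 at 0 h. Between 60 h to 84 h and 24 h to 48 h it fell by 1.27 log2 units (SE 0.24, adjusted p = 0.00191), in 3 of 3 time-courses, and this call was lost without time-course C (-1.14, adjusted p = 0.182). Over the 27 arrays its Pearson r with ARR15 was 0.78, over the 9 time means 0.93, and among arrays of the same time, after subtracting the time means, 0.13.

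UGT76C1, a close relative with the same activity on cytokinins, had a lower mean at every later time than at 0 h, called at 4 of these times. Over all 9 times its moderated F test was not called (adjusted p = 0.0627). In time-courses A, B and C it measured 1.74, 1.77 and 1.83 log2 units at 12 h, against 3.08, 2.74 and 2.56 at 0 h, with no overlap. UGT76C1 fell by 1.02 log2 units at 12 h (SE 0.32, adjusted p = 0.0284), 1.02 at 24 h (adjusted p = 0.038), 1.34 at 36 h (adjusted p = 0.00553) and 1.18 at 60 h (adjusted p = 0.0145) against 0 h, by limma, each in 3 of 3 time-courses. At 48 h it stood 0.93 below 0 h on the log2 scale without passing (adjusted p = 0.0622). Its differences from 0 h at 72 h, 84 h and 96 h were -0.81, -0.76 and -0.49, not called by limma (adjusted p = 0.158, 0.202 and 0.561). At 96 h the differences within A, B and C were -1.87, 0.12 and 0.29. The calls at 12 h and 24 h were lost in 7 and 10 of 18 alternatives: both without the 0 h array of A (-0.87 at each, adjusted p = 0.111 and 0.128) or of B (-1.04 at each, adjusted p = 0.0596 and 0.0785), that at 24 h without the 0 h array of C (-1.13, adjusted p = 0.0525), and each without any 1 of its own 3 arrays, with adjusted p up to 0.0733 at 12 h and 0.136 at 24 h. The 60 h call did not survive leaving out the 0 h array of A (-1.04, adjusted p = 0.0651). All 4 calls were lost without time-course B or C, with adjusted p of 0.123 and 0.0956 at 36 h.

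**Figure D4:**
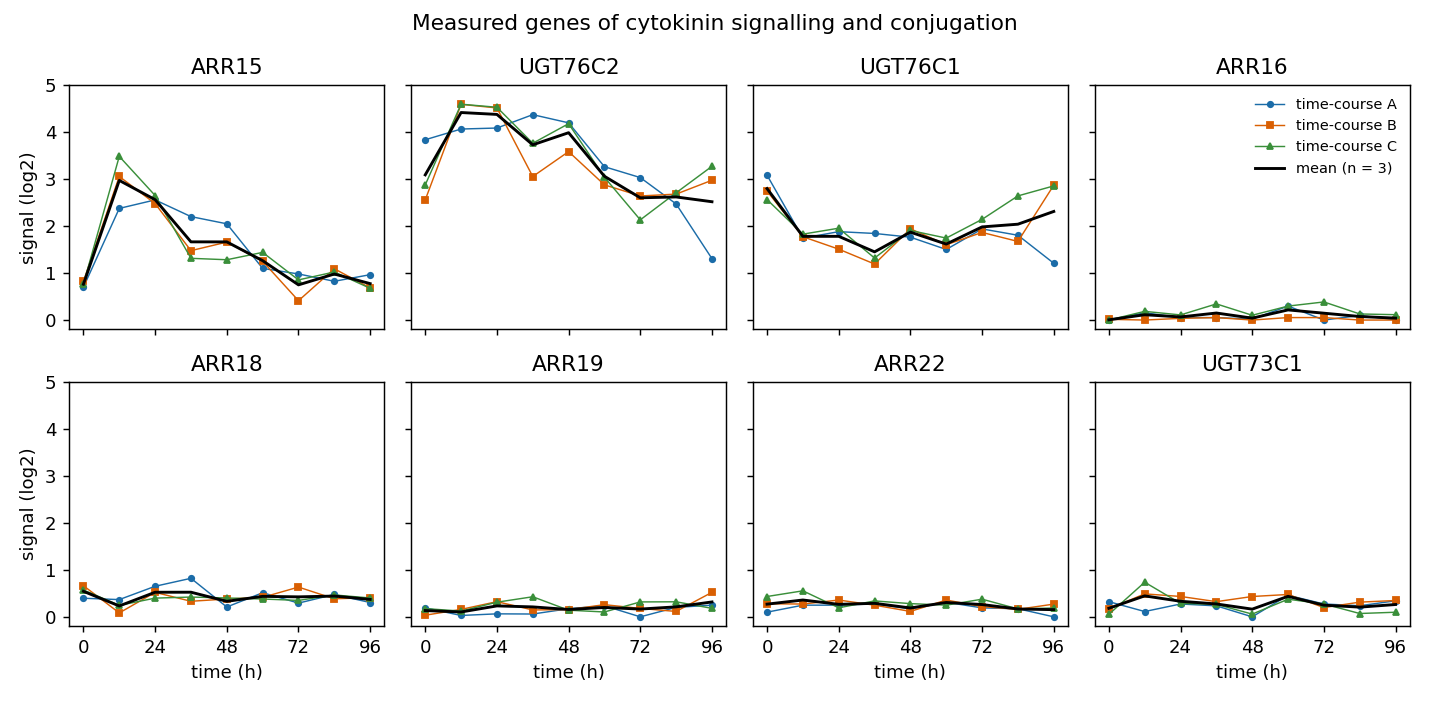
Signal (log2, vertical axes) of ARR15 and the 7 other measured genes of the cytokinin lists against time (h, horizontal axes), with coloured lines for time-courses A, B and C and a black line for the mean (n = 3). The means of UGT76C2 and ARR15 are both highest at 12 h and 24 h, but in A UGT76C2 rises little from 0 h to 24 h. At 48 h the UGT76C2 mean is still 3.98, and that of ARR15 is 1.66. The mean of UGT76C1 is lower after 0 h, and the other 5 genes stay near the floor.

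ARR15 was also set beside every probe set annotated to 1 gene with a clear time profile, taken as an SD over the 9 time means of at least 0.5 log2 units, which left 1437 probe sets. Likeness was measured as Pearson r over the 27 arrays. The values describe profiles of genes that share arrays and a strong time course, and carry no test. The 6 genes most like ARR15 were AT5G67350 (r = 0.89), AT5G66070 (0.89), AT5G18180 (0.87), AT3G27570 (0.86), AT2G36410 (0.84) and AT1G15010 (0.84). All 6 had their highest time mean at 12 h, 1.68 to 2.35 log2 units above 0 h. They parted later: AT1G15010 averaged 0.70 at 72 h, against 2.05 at 0 h, whereas AT3G27570 averaged 2.72 at 72 h, against 2.16 at 0 h. Of the 6, 3 were also among the 6 most alike by the 9 time means and 1 by Spearman's rho over the arrays, so that the exact names rest on the measure. AT5G66070 came first or second by all 3 measures. Its mean was 4.54 at 12 h, 3.54 at 36 h and 2.51 at 72 h, against 2.27 at 0 h.

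The least like ARR15 were FU (r = -0.90), AT1G04040 (-0.90) and AT5G37010 (-0.86). FU, a kinase gene needed for building the new cell wall in cytokinesis, averaged 5.03 at 0 h, 2.22 at 12 h, 3.66 at 24 h, 4.36 at 48 h and 5.42 at 72 h. Of 6 marker genes of dividing cells 3 were measured. All 3 were called lower at 12 h than at 0 h, beside 8.67% of all probe sets. All 3 were called higher at 24 h than at 12 h, beside 12.6% called in either direction. They parted at 24 h against 0 h, with 1 called higher and 2 lower (5.44% and 6.77% of all probe sets). The Aurora kinase genes AUR1 and AUR2, which act in mitosis, had r of -0.83 and -0.82 with ARR15 over the arrays. MCM7, a subunit of the helicase of DNA replication, had r = -0.31 and was 0.67 ± 0.20 log2 units higher at 24 h than at 0 h, a rise that limma called (adjusted p = 0.0348). The 6 measured genes of a list of 15 for auxin response had r with ARR15 of 0.62 (GH3.3), 0.47 (IAA30), 0.08 (GH3.17), -0.05 (IAA29), -0.09 (GH3.1) and -0.33 (GH3.5). GH3.3, an auxin-induced conjugating enzyme gene and the closest of the 6, averaged 7.00 log2 units at 12 h, 3.39 at 24 h and 3.71 at 72 h, against 0.86 at 0 h. GH3.3 was thus still above its 0 h level at 72 h (2.85 ± 0.22, SE; adjusted p = 4.15e-08 by limma), when ARR15 stood at -0.01 ± 0.24. That GH3.3 and ARR15 differ in this was not tested. Of the 6 auxin genes 3 were called higher at 72 h, beside 6.57% of all probe sets called in either direction.

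**Figure D5:**
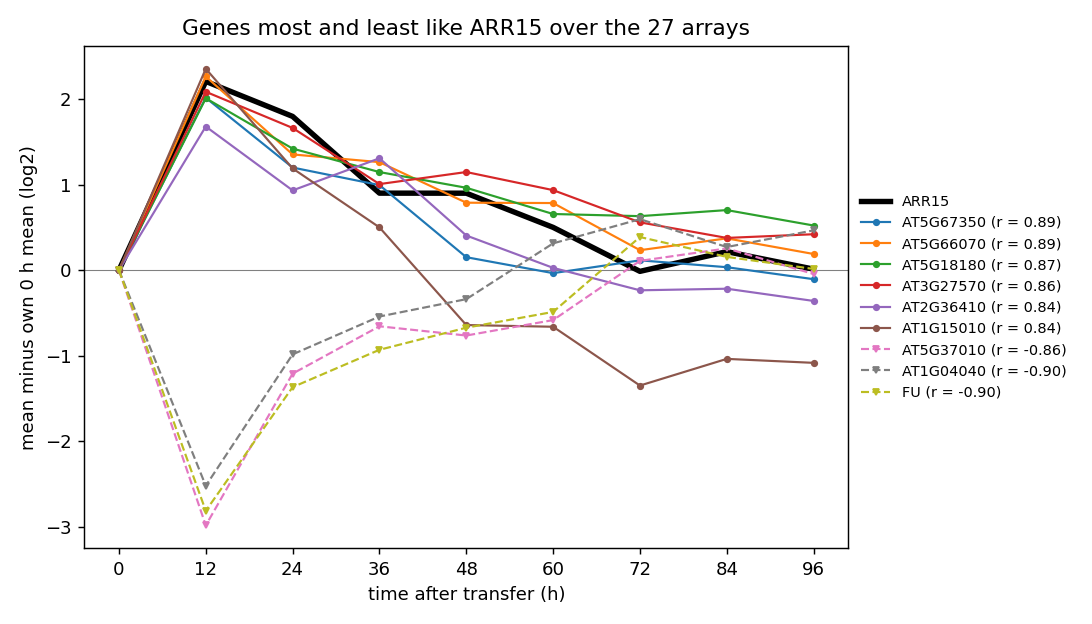
Time means minus each gene's own 0 h mean (log2, vertical axis) against time after transfer (h, horizontal axis), for ARR15 (thick black), the 6 genes with the highest Pearson r with ARR15 over the 27 arrays (solid lines) and the 3 with the lowest (dashed lines). The 6 peak at 12 h with ARR15, and the 3 are lowest at 12 h, by 2.52 to 2.98 log2 units below 0 h.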

How the data were processed

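RMA gave the deposited log2 signals, per the submitters' processing notes. Its version, its settings and the genome build are not given in any source used here. Of 22810 probe sets, 64 controls and 3 lacking a value on some array were set aside. The annotation lists 14016 probe sets, 13513 with 1 gene, and 13436 of these matched a gene table of assembly TAIR10.1, used for names alone. Arrays were placed by time and letter from their titles. limma 3.58.1 in R 4.3.3 (lmFit with 1 mean per time, eBayes, Benjamini-Hochberg over 22743 probe sets) was tested on simulated data. Letters mark a shared time-course, per the design text: after each time's mean was subtracted, arrays sharing a letter correlated with a median r of 0.246 (108 pairs), and arrays sharing neither letter nor time with one of -0.125 (216 pairs). With 3 arrays a time, subtracting their mean ties the second value to the first, so it adds no separate evidence. Values after ± are SE of the fit unless SD is written, and the spread is pooled over times. Precision is limited by having 3 arrays a time. The gene, lists and tests were chosen with earlier results of these data known. Genes named are ARR15, members of the lists, and the 6 most and 3 least like ARR15. Alternatives were a block for the letter, other scalings, array weights, a dim filter, other variance models, left-out arrays and a control covariate. No sequence was printed, since no sequence table was at hand.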

Additional observations from a re-analysis of the deposited data

How the results depend on the processing

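Over 16 comparisons of ARR15 between times and 300 alternatives, 288 kept their side of the threshold, 8 lost the call, 4 gained one and 0 reversed a called value. Small uncalled differences could change sign: that of 72 h against 0 h ran from -0.16 to 0.19 over its alternatives. With the letter as a replicate block the 12 h difference from 0 h was 2.21 (adjusted p = 1.60e-06), and the block changed no call of ARR15. The 36 h difference was not called in a fit to its own times alone (0.90), without time-course A (0.60), B (1.02) or C (1.08), and ran from 0.63 to 1.08 with 1 array left out. The 48 h difference was not called without B (0.93) or C (1.09), and ran from 0.71 to 1.09 with 1 array left out. The step of 24 h against 12 h was called without A (-0.70). That of 36 h against 24 h was called without A (-1.17) and with array weights (-1.00), and ran from -1.17 to -0.72 with 1 array left out. Over all probe sets the calls at this step were 30, 311 without A and 208 with array weights. Of the 36 pairs 14 were called, 7 without B, 9 without C and 21 with array weights. Calls over all probe sets changed in these settings too. At 24 h against 0 h they were 2776, and 1753 without B, 777 without C and 4248 with array weights. Of the 7 other cytokinin genes 2 were called at 12 h, 4 with array weights, 4 without A, 0 without B, 0 without C, and 0 to 2 with 1 array left out. Over all probe sets the calls at 12 h were 3900, 5069 with array weights, 4121 without A, 2662 without B and 1563 without C. With 1 array left out they ran from 3072 to 3726. Leaving out a whole time-course leaves 2 arrays a time, and leaving out A or C was chosen after seeing the data.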

Other observations

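At 96 h the array of time-course A stood apart from those of B and C for several genes, among them both measured N-glucosyltransferase genes. UGT76C1 stood at 1.21, 2.87 and 2.85 log2 units in A, B and C, and UGT76C2 at 1.31, 2.97 and 3.27. Time-course A was below B and C by more than 1.5 log2 units in both genes. The gap was not particular to these genes: IRX15 stood at 3.43, 1.28 and 1.23, PASPA3 at 3.83, 1.22 and 1.66 and IRX10, another xylan synthesis gene, at 2.73, 1.52 and 1.14, with A the highest. ARR15 stood at 0.97, 0.68 and 0.68 on the same arrays. With 1 array per letter this was not tested.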
